A study of Mus musculus with 4 samples.

Results

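The 37 genes of the mouse mitochondrial chromosome (MT) were taken from a raw table of 37620 genes, as every gene whose Ensembl identifier lies on MT, in RNA-seq libraries of R1 mouse embryonic stem cells (ESCs) of strain 129/Sv. The 13 genes that code for proteins were kept apart from the 2 genes of ribosomal RNA (rRNA) and the 22 genes of transfer RNA (tRNA). Wild-type (WT) cells and cells in which Cripto (Tdgf1, a co-receptor of the TGF-beta ligand Nodal) had been knocked out (Cripto KO) were compared, either kept in serum with LIF, the cytokine that holds ESCs in self-renewal (serum/LIF), or seeded at low density and grown for 6 days in N2B27 medium with Activin A at 20 ng/ml and bFGF (F/A), the culture that turns ESCs into epiblast stem cells (EpiSCs). Each of these 4 conditions was sequenced as 1 library, so no value carries a replicate error and no comparison has a test. The study worked with more than a single Cripto KO ESC clone, and which clone was sequenced is not given in the sources used here.

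Mitochondrial DNA codes for core subunits of the respiratory chain, and all other subunits are made from nuclear genes and imported. Both strands are transcribed into long precursors, from which tRNAs are cut out, and the RNAs that lie between them become rRNAs and mRNAs, so that the levels of mature RNAs from 1 precursor depend on processing and decay as well as on transcription. Pluripotent cells leave the naive state with a shift in their use of respiration and glycolysis.

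Library totals ran from 15230856 to 17315442 counts. Values are given in CPM, raw counts scaled to a library total of 1000000, in the order WT serum/LIF, WT F/A, Cripto KO serum/LIF and Cripto KO F/A. Nearly all counts of the Cripto KO F/A library were even (only 3 genes had an odd count), so its counts were divided by 2 before intervals were computed. Ratios carry 95% Clopper-Pearson intervals, which cover counting error only. Tdgf1 had 1081, 103, 58.1 and 5.46 CPM, so it was lower in both libraries labelled Cripto KO than in the WT library of the same culture. The pluripotency markers Pou5f1, Sox2 and Nanog together had 2948, 176, 2579 and 133 CPM, and 7 markers of naive ESCs, of which Tfcp2l1 was not found in the table, 3222, 28.5, 2863 and 45.5 CPM. The 6 markers of primed epiblast had 168, 1137, 184 and 580 CPM, with Pou3f1 at 0 in each library. T alone had 574 CPM in WT F/A and 356 CPM in Cripto KO F/A. Otx2 was lower in Cripto KO F/A (43.1 CPM) than in Cripto KO serum/LIF (62.9 CPM). Pou5f1 was at 119 CPM in WT F/A against 1551 CPM in WT serum/LIF, which goes against the EpiSC label, since EpiSCs are known to keep this gene. Markers of other lineages were higher in sum in F/A: 6 trophoblast markers (Tfap2c not found, Elf5 at or near 0) had 5.26, 164, 2.03 and 196 CPM, and 5 markers of primitive endoderm 13.1, 185, 11.6 and 247 CPM. The sums hide unlike members, since the trophoblast marker Eomes was highest in WT F/A (129 CPM) and Hand1 in Cripto KO F/A (110 CPM). The endoderm marker Sox7 was lower in both F/A libraries, and Sox17 was higher in WT F/A (45.2 CPM) than in Cripto KO F/A (17.2 CPM). The 7 fibroblast markers, which feeder cells would carry, had 116, 72.5, 123 and 190 CPM. Among them Col1a1, Col1a2, Col3a1 and Postn were highest in Cripto KO F/A. Lum was near 0. Dcn (18.9, 0.328, 25.6 and 1.14 CPM) and Thy1 (26.9, 1.18, 21.5 and 1.78 CPM) were lower in both F/A libraries. Whether cells of these other types were present was not tested, nor what part they had in the values of the MT genes. In such bulk RNA fewer cells of a type and less RNA per cell cannot be told apart.

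Neighbouring genes of MT share bases, which bears on how reads were assigned to them. In the NCBIM37 build, mt-Atp8 (MT:7766-7969) and mt-Atp6 (MT:7927-8607), subunits of the ATP synthase that are read from 1 shared mRNA, overlap by 43 bases, and mt-Nd4l (MT:9877-10173) and mt-Nd4 (MT:10167-11544), subunits of complex I that also share an mRNA, overlap by 7 bases. The stretches are shown on the plus strand with the shared bases in capitals, together with the single base shared by mt-Atp6 and mt-Co3.
mt-Atp8/mt-Atp6 (MT:7915-7981): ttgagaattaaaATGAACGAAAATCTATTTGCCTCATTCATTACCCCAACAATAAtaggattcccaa
mt-Nd4l/mt-Nd4 (MT:10155-10185): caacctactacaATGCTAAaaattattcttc
mt-Atp6/mt-Co3 (MT:8595-8619): tgataatacataAtgacccaccaaa
In each of the first 2 stretches the capitals open with the ATG of the downstream gene and close with the TAA of the upstream gene. In all, 9 pairs of neighbours overlapped, among them mt-Nd5 and mt-Nd6, which share 14 bases on opposite strands.

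The 3′ ends show how these mRNAs depend on their tail. The annotated ends of 3 of the 13 genes, mt-Co3, mt-Nd4 and mt-Cytb, stop at a lone T, which the poly(A) tail is known to complete to the stop codon TAA, and the other 10 hold a complete stop codon. The last bases of the genes with an incomplete stop codon are shown with mt-Co1 beside them, with the end of the coding sequence in capitals and the first bases of the next gene or spacer after it.
mt-Co3 (MT:9367-9396): tctccatttattgatgaggatctTactccc
mt-Nd4 (MT:11521-11550): aactaattacaggcctgacaataTgtgaat
mt-Cytb (MT:15265-15294): acaaaatactaaaattatatccaTgtcttg
mt-Co1 (MT:6849-6878): ccaacctatgtaaaagtaaaaTAAgaaagg
The first codon was ATG in 9 genes, while mt-Nd1 began with GTG, mt-Nd2 with ATA, mt-Nd3 with ATT and mt-Nd5 with ATC.

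Part of MT has a nearly identical copy in the nuclear genome, so reads from it can have more than 1 place. The stretch chr1:24618374-24623027, on the minus strand, matched MT:6390-11042 over 4654 aligned bases with 99.9% identity, 2 base differences (A6393T and T9461C, given as the MT base, its position on MT and the base of the copy) and 1 inserted base. The second difference lies in the start codon of mt-Nd3 (MT:9459-9806), shown in capitals.
mt-Nd3 start (MT:9441-9481): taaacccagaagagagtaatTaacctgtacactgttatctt
copy (chr1:24619936-24619976): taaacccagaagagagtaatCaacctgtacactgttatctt
All windows of 100 bases within mt-Co2, mt-Atp8, mt-Atp6, mt-Co3 and mt-Nd4l had an exact nuclear copy, as did 98.8% of those in mt-Nd3, 60.8% in mt-Nd4, 30.8% in mt-Co1, 3.19% in mt-Nd2 and 1.21% in mt-Rnr2. The remaining genes, mt-Nd1, mt-Nd5, mt-Nd6, mt-Cytb and mt-Rnr1, had no such window. Only 2 genes were annotated inside the copy on chromosome 1. Gm10925 (chr1:24620814-24621627) spans the copy of MT:7790-8603, which holds most of mt-Atp8 and mt-Atp6, and Gm10222 (chr1:24619243-24619539) spans the copy of MT:9877-10173, which is mt-Nd4l from its first base to its last. Gm10925 had 715, 511, 722 and 436 counts and Gm10222 had 65, 27, 56 and 20 counts, and these cannot be told apart from reads of the MT genes. The 3 protein-coding genes that Gm10925 and Gm10222 repeat included the 2 lowest per kilobase, mt-Atp8 and mt-Nd4l, while mt-Co2 and mt-Co3, copied over their whole length without an annotated nuclear gene, were among the 3 highest. What part the copies had in these levels was not tested.

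**Figure D1:**
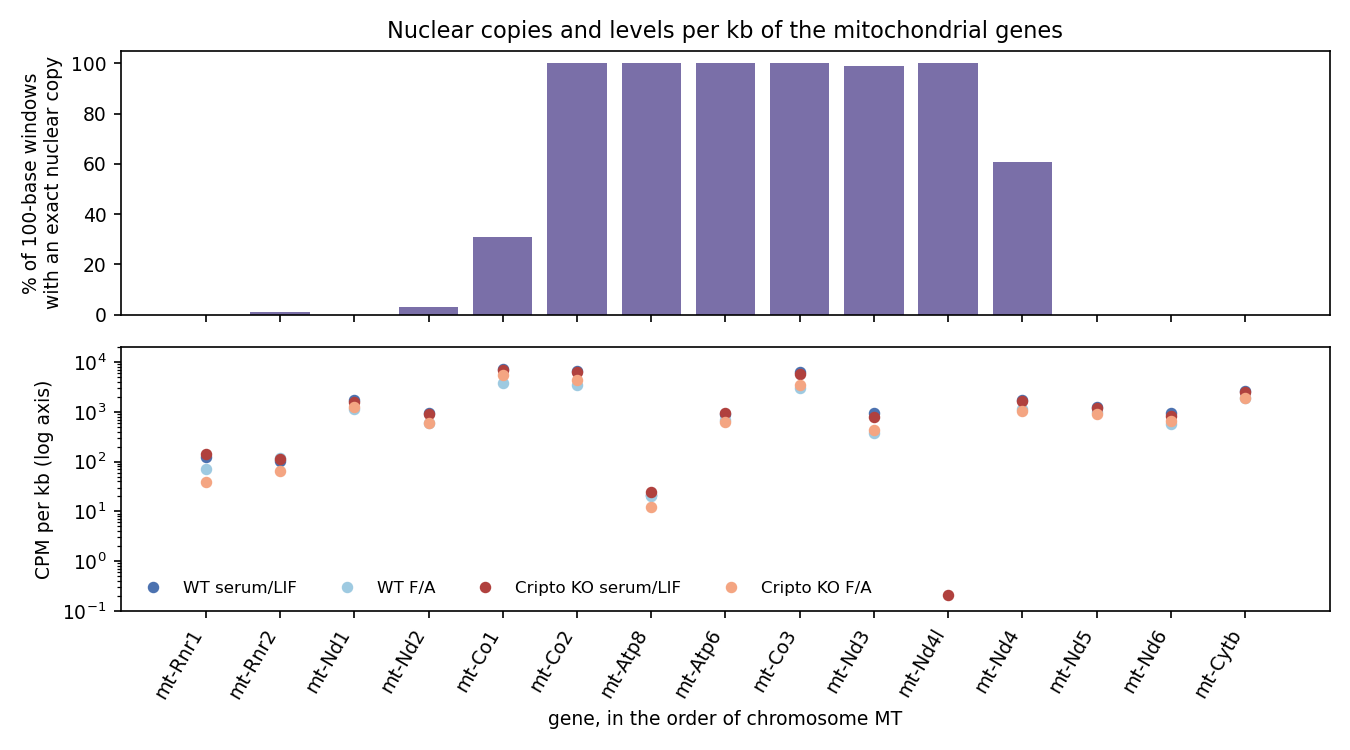
The upper bars give for each rRNA and protein-coding gene, in MT order, the percentage of its 100-base windows with an exact copy in the nuclear genome, and the lower points its level in each library in CPM per kilobase on a log axis. The long stretch with copies runs from mt-Co1 to mt-Nd4, beside shares of 3.19% in mt-Nd2 and 1.21% in mt-Rnr2, and within it mt-Co2 and mt-Co3 lie at 2993 CPM per kilobase or above in every library while mt-Atp8 lies at 25.0 or below; points at 0 (mt-Nd4l in 3 libraries) are not drawn.

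Apart from mt-Atp8 and mt-Nd4l, which had few or no counts, most of the 13 mRNAs were among the most abundant RNAs of these cells. Together the 13 took 3.25% of all counts in WT serum/LIF and 1.86% in WT F/A. In Cripto KO they took 3.04% in serum/LIF and 2.19% in F/A, so both serum/LIF libraries lay above both F/A libraries. mt-Co1 (MT:5328-6872, ENSMUSG00000064351), the catalytic subunit of cytochrome c oxidase (complex IV), alone had 11277, 5782, 10615 and 8327 CPM. It was the most abundant of all genes in both serum/LIF libraries and stood behind Eef1a1, a translation elongation factor of the cytosol, in both F/A libraries.

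Per kilobase of gene length, the 3 subunits of complex IV led in every library, in the order mt-Co1, mt-Co2, mt-Co3. In WT serum/LIF they had 7299, 6666 and 6260 CPM per kilobase, and in WT F/A 3742, 3443 and 2993. mt-Cytb (MT:14145-15288), the only MT subunit of complex III, came next in every library with 2563, 1914, 2542 and 1887 CPM per kilobase. Of complex I, mt-Nd1 (MT:2751-3707), mt-Nd4 and mt-Nd5 were above mt-Nd2, mt-Nd6 and mt-Nd3 in every library. mt-Nd4 and mt-Nd1 were nearest to each other in WT F/A, at 1122 and 1116 CPM per kilobase, and mt-Nd1 was the higher in WT serum/LIF and Cripto KO F/A, so that their order followed neither culture nor genotype. The low end was held by mt-Atp8, with 21.8, 20.6, 25.0 and 12.5 CPM per kilobase, and by mt-Nd4l, which had 1 count in Cripto KO serum/LIF and 0 in the other libraries. A count of 0 allowed up to 3 counts in those WT libraries and 6 counts in Cripto KO F/A, or 0.173, 0.197 and 0.381 CPM.

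**Figure D2:**
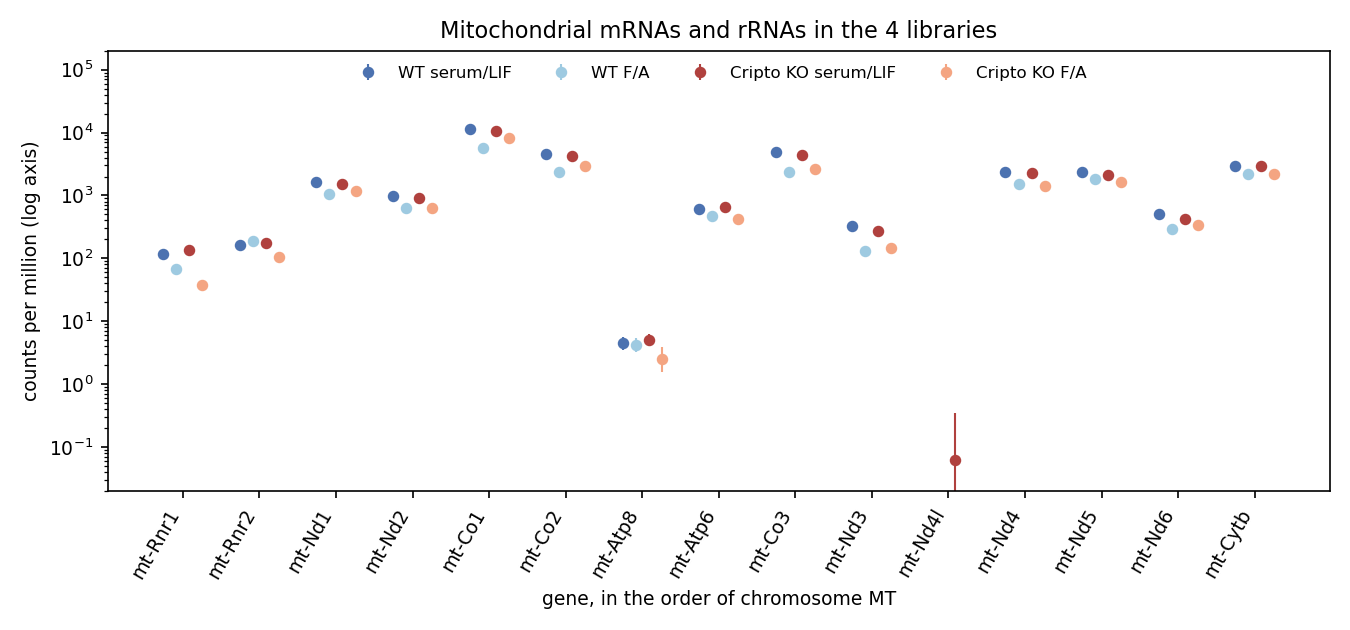
Points give the level of each MT rRNA and mRNA in CPM on a log axis, in MT order and by library, with bars for 95% Poisson counting intervals that are mostly smaller than the points; libraries at 0 for mt-Nd4l are not drawn. The mRNAs other than mt-Atp8 and mt-Nd4l spread from 133 CPM (mt-Nd3 in WT F/A) to 11277 CPM (mt-Co1 in WT serum/LIF), and both rRNAs lie between 37.5 and 186 CPM.

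Whether mitochondrial transcripts changed when WT cells left serum/LIF is shown by WT F/A against WT serum/LIF. All 12 mRNAs that passed the authors' filter were lower in F/A, where 50.9% of all 15462 genes tested were lower, and the sum of the 13 mRNAs was 0.574-fold (95% interval 0.571 to 0.576), or -0.80 on the log2 scale. Past a fold of 2 lay 2 mRNAs, both lower, beside 20.1% of all genes at least 2-fold lower and 22.3% at least 2-fold higher. The members did not move as a block: among the 11 mRNAs with more than 100 CPM in each library, log2 changes ran from -1.29 (mt-Nd3) to -0.35 (mt-Nd5), with a median of -0.65.

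The lowest ratios in WT were those of a complex I subunit and of complex IV. mt-Nd3, which had 324, 133, 268 and 149 CPM, was 0.41-fold (0.39 to 0.431). mt-Co3 (MT:8607-9390) had 4908, 2346, 4404 and 2681 CPM and was 0.478-fold (0.472 to 0.484). mt-Co1 was 0.513-fold (0.509 to 0.517). Both F/A libraries lay below both serum/LIF libraries for each of these genes, and WT F/A was the lowest of the 4. mt-Co2 (MT:7013-7696), which carries the site that takes electrons from cytochrome c, had 4560, 2355, 4229 and 2952 CPM and was 0.516-fold (0.51 to 0.523).

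At the other end stood mt-Nd5, mt-Cytb and mt-Atp6. mt-Nd5 (MT:11742-13565), a proton-pumping subunit of complex I, had 2323, 1819, 2135 and 1651 CPM and was 0.783-fold (0.771 to 0.795) in WT. mt-Cytb had 2932, 2190, 2908 and 2159 CPM and was 0.747-fold (0.737 to 0.757). mt-Atp6, the subunit that forms the proton path of the ATP synthase, had 612, 467, 652 and 428 CPM and was 0.763-fold (0.74 to 0.786). For mt-Nd5, mt-Cytb and mt-Atp6 both F/A libraries were again below both serum/LIF libraries, but Cripto KO F/A was the lowest. mt-Nd1, mt-Nd2 (MT:3914-4951), mt-Nd4 and mt-Nd6 (MT:13552-14070) lay between, with log2 changes of -0.64, -0.65, -0.62 and -0.76. mt-Nd6, the only mRNA read from the other strand, thus changed within the range of the rest.

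Short nuclear transcripts were also lower in WT F/A. The 100 nuclear genes nearest in transcript length to mt-Nd3 (348 bases) had a median of -0.60 on the log2 scale in the WT comparison and of -0.17 in that of Cripto KO, while the medians of those nearest to mt-Co1 (1545 bases) were 0.09 and 0.10. In WT the medians did not rise evenly with length. They were -0.07 near mt-Co3 (784 bases), -0.53 near mt-Nd2 (1038 bases) and -0.27 near mt-Rnr2 (1582 bases). What is taken off a gene thus depends also on which genes lie near it in length. With these medians taken off gene by gene, the log2 change of the summed mRNAs was -0.70 in WT and -0.48 in Cripto KO. Then 11 of 12 mRNAs were lower in WT and 12 of 12 in Cripto KO, beside 7278 and 7380 of 14850 genes treated alike. The median over the 12 mRNAs was then -0.36 in WT and -0.53 in Cripto KO, against -0.65 and -0.53 before, so that the order of the genotypes turned by the median and not by the sum, of which mt-Co1 holds the largest share. Since few nuclear transcripts are as short as mt-Atp8 and mt-Nd3, their medians come mostly from longer genes.

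In Cripto KO cells the sum of the mRNAs was less far below its serum/LIF level. All 12 mRNAs that passed the filter were lower in Cripto KO F/A than in Cripto KO serum/LIF, beside 51.2% of all genes, and the sum was 0.723-fold (0.719 to 0.727), or -0.47 on the log2 scale. mt-Atp8 was the only mRNA past a fold of 2, with 83 counts in serum/LIF and 40 in F/A and a ratio of 0.498 (0.289 to 0.819), beside 19.1% of all genes at least 2-fold lower and 20.5% at least 2-fold higher. The ratio of mt-Atp8 lay at the limit, and it fell short of a fold of 2 under 5 other settings. The 11 abundant mRNAs ran from -0.85 (mt-Nd3) to -0.32 (mt-Nd6) on the log2 scale, with a median of -0.52. mt-Nd6 had 502, 295, 424 and 339 CPM.

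The difference between the genotypes was carried by some members and not by others. The log2 change of the summed mRNAs was higher by 0.33 in Cripto KO than in WT (counting interval 0.32 to 0.34). By gene, the difference, Cripto KO minus WT, was 0.61 for mt-Co1 (0.60 to 0.63), the largest among the abundant mRNAs. With the authors' quantile-normalized values, which follow from a gene's rank alone, mt-Co1 was at -0.23 in both transitions, so that this difference vanished. It was 0.44 for mt-Nd6 (0.36 to 0.53), 0.43 for mt-Co2 and 0.43 for mt-Nd3. It was 0.35 for mt-Co3, 0.30 for mt-Nd1 and 0.11 for mt-Nd2. In contrast, mt-Nd5 differed by -0.02 (-0.05 to 0.02) and mt-Cytb by -0.01 (-0.04 to 0.02), intervals that include 0 and that exclude the difference of mt-Co1. mt-Nd4 and mt-Atp6 were on the other side, at -0.05 and -0.22, and so was mt-Atp8, at -0.92 (-1.78 to -0.07) from few counts. Of the 12 mRNAs with a change in both genotypes 7 (58.3%) were higher in this difference, beside 50.0% of the 14884 genes for which it could be computed, and the median was 0.20. With the medians over transcript length taken off, the difference of the sum was 0.22. Then 6 of 12 mRNAs were higher, beside 7433 of 14850 genes treated alike, and the median over the mRNAs was -0.04. For the 4 genes without an exact nuclear copy, summed, the difference was 0.08.

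Cripto KO and WT cells were then compared within each culture; these comparisons use the libraries already described and give no independent evidence. In F/A, 7 of 12 mRNAs were higher in Cripto KO, beside 46.9% of all genes, and the sum was 1.18-fold (1.17 to 1.19). None passed a fold of 2, beside 3.7% of all genes at least 2-fold higher and 7.72% at least 2-fold lower. mt-Co1 was 1.44-fold (1.43 to 1.45) and mt-Co2 1.25-fold (1.23 to 1.27), while mt-Cytb was 0.986-fold (0.968 to 1.004), mt-Nd4 0.929-fold (0.908 to 0.95) and mt-Nd5 0.908-fold (0.889 to 0.927). The direction of the sum turned with the choice of members: over the 4 genes without an exact nuclear copy it was -0.01 on the log2 scale, against 0.24 over all 13. The 4 were not alike, since mt-Nd1 was 1.12-fold (1.09 to 1.15) and mt-Nd6 1.15-fold (1.09 to 1.21), beside the ratios below 1 of mt-Cytb and mt-Nd5. With the medians over transcript length taken off, the sum was at 0.12 but 8 of 12 mRNAs were lower in Cripto KO, beside 7868 of 14850 genes treated alike. The median over the 12 was then -0.13 against 0.09 before.

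In serum/LIF, 10 of 12 mRNAs were lower in Cripto KO, beside 53.8% of all genes, and the sum was 0.935-fold (0.932 to 0.939). None passed a fold of 2, beside 2.12% of all genes at least 2-fold higher and 3.52% at least 2-fold lower. The 11 abundant mRNAs ran from -0.27 (mt-Nd3) to 0.09 (mt-Atp6) on the log2 scale. mt-Cytb was 0.992-fold (0.98 to 1.005), an interval that includes 1.

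**Figure D3:**
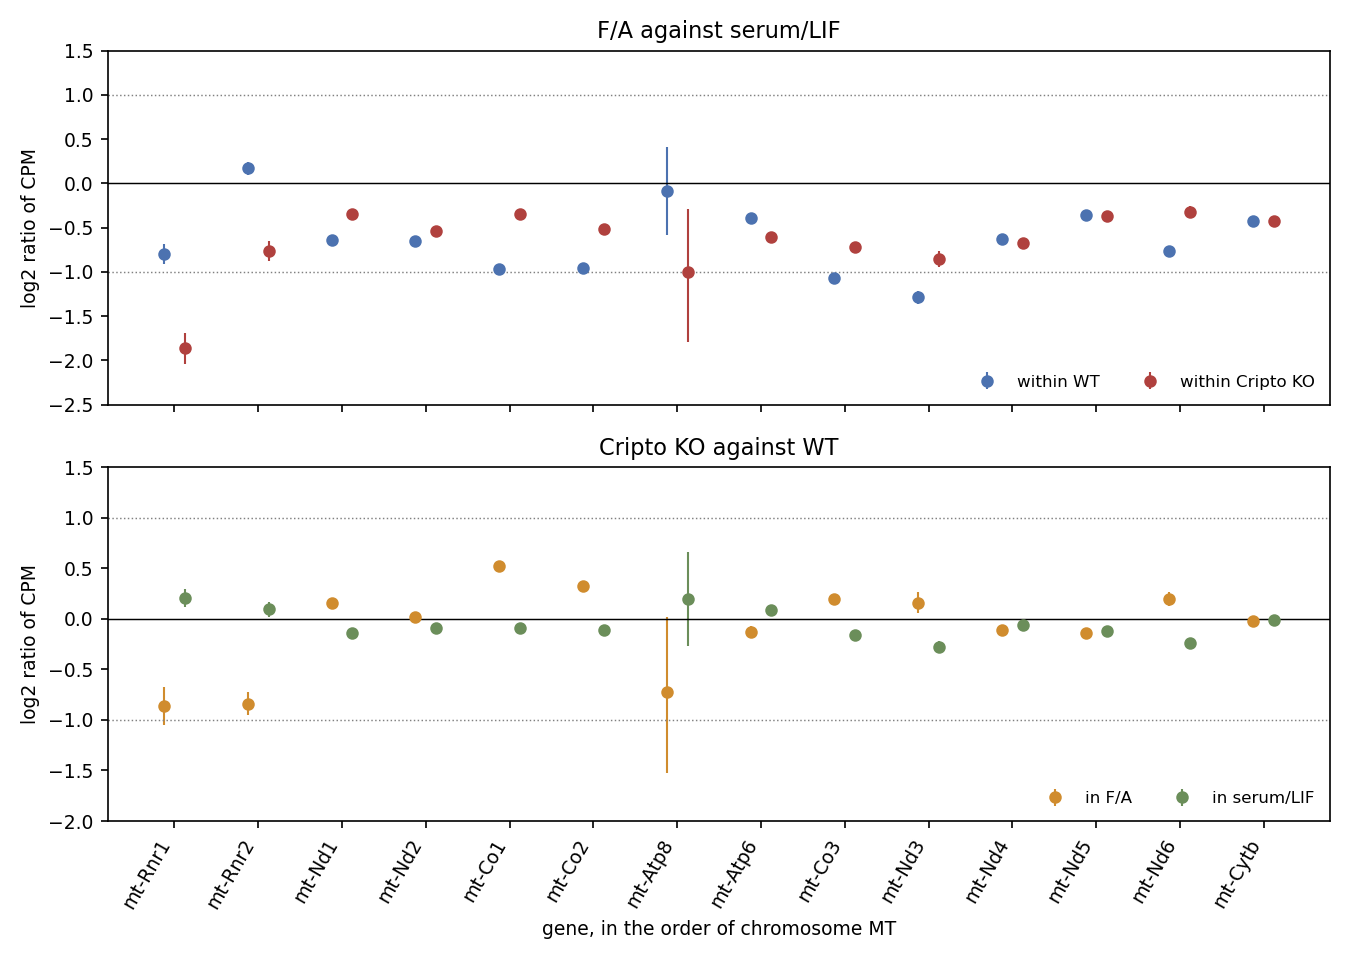
Points give the log2 ratio of CPM of each MT rRNA and mRNA with a ratio, in MT order, with bars for 95% Clopper-Pearson counting intervals and dotted lines at a fold of 2; the upper panel compares the cultures for each genotype, and the lower panel Cripto KO with WT within each culture. mt-Co1, mt-Co2, mt-Co3 and mt-Nd3 were further below 0 in WT, mt-Nd5 and mt-Cytb had nearly equal changes in both genotypes, and both rRNAs were lower in Cripto KO in F/A.

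The make-up of the mitochondrial mRNA, which does not depend on the scaling of libraries, set WT F/A apart. The 3 subunits of complex IV held 63.9% of the counts of the 13 mRNAs in WT serum/LIF, 63.4% in Cripto KO serum/LIF and 63.6% in Cripto KO F/A, but 56.3% (Wilson 95% interval 56.1 to 56.5) in WT F/A. The 7 subunits of complex I held 25.2%, 29.4%, 24.9% and 24.6%, and mt-Cytb 9.03%, 11.8%, 9.58% and 9.84%. Within complex IV the Cripto KO F/A library was not like the serum/LIF libraries. mt-Co1 held 37.9% of the counts there against 34.7% in WT serum/LIF and 35.0% in Cripto KO serum/LIF, whereas mt-Co3 held 12.2% against 15.1% and 14.5%. In WT F/A both were low, at 31.0% for mt-Co1 and 12.6% for mt-Co3. All windows of mt-Co2 and mt-Co3 and 30.8% of those of mt-Co1 had an exact nuclear copy. In contrast, mt-Cytb and the complex I genes mt-Nd1, mt-Nd5 and mt-Nd6 had none. What part the copies had in these shares was not tested.

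**Figure D4:**
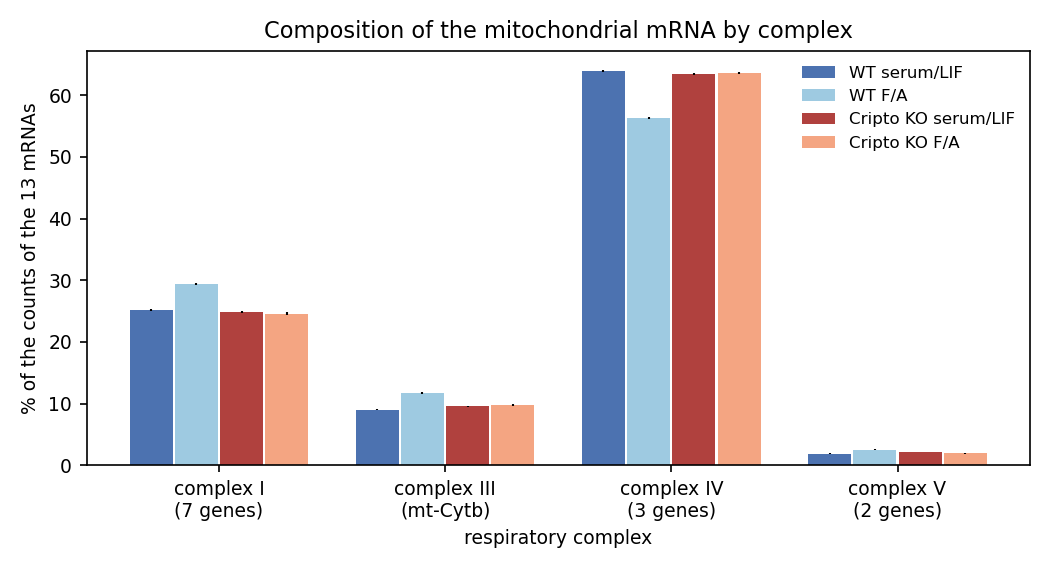
Bars start at 0 and give the percentage of the counts of the 13 MT mRNAs that falls to each respiratory complex, by library, with Wilson 95% counting intervals. WT F/A has the lowest share of complex IV (56.3%) and the highest shares of complexes I and III, while the other libraries lie within 63.4% to 63.9% for complex IV.

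The rRNAs did not follow the summed mRNAs between genotypes. mt-Rnr1 (MT:70-1024), the RNA of the small mitochondrial ribosomal subunit, had 119, 68.2, 137 and 37.5 CPM. mt-Rnr2 (MT:1094-2675), that of the large subunit, had 166, 186, 177 and 104 CPM. Cripto KO F/A was the lowest library for both. The libraries stood in the same order for mt-Rnr1 as for mt-Atp6 and mt-Atp8, while for mt-Rnr2 the other 3 libraries lay close together. In WT the F/A transition gave 0.575-fold (0.533 to 0.62) for mt-Rnr1 and 1.13-fold (1.07 to 1.19) for mt-Rnr2. In Cripto KO it gave 0.274-fold (0.242 to 0.31) and 0.589-fold (0.544 to 0.636). Cripto KO against WT in F/A gave nearly the same ratio for both, 0.55-fold (0.482 to 0.627) and 0.558-fold (0.516 to 0.604), while in serum/LIF the ratios were 1.15-fold and 1.07-fold.

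Hence mRNA and rRNA counts stood in other proportions in each library. The 13 mRNAs had 114 counts per rRNA count in WT serum/LIF, 73.2 in WT F/A, 96.9 in Cripto KO serum/LIF and 155 in Cripto KO F/A. The counts of mt-Rnr2 per count of mt-Rnr1 were 1.40 and 1.29 in the serum/LIF libraries and 2.73 and 2.78 in the F/A libraries. Mitochondrial rRNAs are far more abundant in cells than the mRNAs, and they carry only short tails, so libraries that select poly(A) RNA hold little of them. The labels name only standard Illumina protocols. The 70 replication-dependent histone genes, whose mRNAs have no poly(A) tail, summed to 49.7, 20.0, 64.2 and 17.28 CPM, lower in both F/A libraries, and what part the selection of RNA had in the rRNA values was not tested.

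Few reads came from tRNA genes, 465, 184, 395 and 224 counts in all, and 11 of the 22 had no count in any library. The 4 with at least 20 counts in a library are shown in full, each read on its own strand with the anticodon in capitals.
mt-Tp (MT:15356-15422, minus): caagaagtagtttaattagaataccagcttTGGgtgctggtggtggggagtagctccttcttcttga
mt-Tw (MT:4950-5016, plus): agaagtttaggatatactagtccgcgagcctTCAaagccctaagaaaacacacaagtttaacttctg
mt-Ta (MT:5018-5086, minus): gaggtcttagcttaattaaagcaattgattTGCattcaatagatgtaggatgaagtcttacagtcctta
mt-Te (MT:14071-14139, minus): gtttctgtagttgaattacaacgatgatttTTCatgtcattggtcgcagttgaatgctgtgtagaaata
mt-Tp, the proline tRNA next to the control region, had 272, 124, 238 and 166 counts and was 0.518-fold (0.416 to 0.643) in the WT transition and 0.721-fold (0.554 to 0.929) in the Cripto KO transition. mt-Tw, the tryptophan tRNA that follows mt-Nd2, had 87, 15, 81 and 10 counts, 0.196-fold (0.105 to 0.341) in WT and 0.128-fold (0.0403 to 0.31) in Cripto KO. mt-Ta, the alanine tRNA on the other strand beside it, had 42, 6, 39 and 4 counts, 0.162-fold (0.0564 to 0.384) and 0.106-fold (0.0124 to 0.409), where the 4 counts of Cripto KO F/A lie under the limit of 6 counts in that library. Both F/A libraries lay below both serum/LIF libraries for mt-Tp, mt-Tw and mt-Ta, and for mt-Tw the ratios were below that of any mRNA, with an interval in Cripto KO that overlaps that of mt-Atp8. mt-Te, the glutamate tRNA between mt-Nd6 and mt-Cytb, had 30 counts in WT serum/LIF and 14 in each of the other libraries. Mature tRNAs are shorter than the sequenced fragments of most libraries, and whether these counts came from tRNAs or from precursors cannot be told apart. The other 7 tRNA genes with a count had at most 18 in a library.

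Most subunits of the respiratory chain come from the nucleus, and their mRNAs were set beside those of MT. All 75 nuclear subunits tested were lower in WT F/A than in WT serum/LIF, 46 of them at least 2-fold, with a median log2 change of -1.14, against -0.65 for the 12 MT mRNAs and -0.03 for all genes tested, of which 50.9% were lower and 20.1% at least 2-fold. In Cripto KO 63 of 75 were lower, 5 of them at least 2-fold, beside 51.2% and 19.1% of all genes, with a median of -0.37, against -0.53 for the MT mRNAs. The difference between the genotypes was thus above 0 for 75 of 75 nuclear subunits, with a median of 0.75, and for 7 of 12 MT mRNAs, beside 50.0% of all genes for which it could be computed. Nuclear subunits are short, with a median transcript length of 630 bases. With the medians over transcript length taken off, their medians were -0.78 in WT, -0.23 in Cripto KO and 0.50 for the difference. In WT 72 of 75 subunits were then lower, 19 of them at least 2-fold, beside 7278 and 2532 of 14850 genes treated alike. In Cripto KO 56 were lower, 4 of them at least 2-fold, beside 7380 and 2510. Of 75 subunits 71 were above 0 in the difference, beside 7433 of 14850 genes treated alike. The genes that gave the medians over transcript length included the subunits, so part of the subunits' own change was taken off. The 12 MT mRNAs, treated alike, had -0.36, -0.53 and -0.04, so that the MT median was above the nuclear median in WT and below it in Cripto KO.

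By complex, the lowest nuclear median in WT was that of complex IV, -1.47 over 11 genes, and in Cripto KO it was again complex IV, at -0.78. Its MT genes had medians of -0.96 and -0.52. Cox4i1, a regulatory subunit of complex IV, was 0.293-fold in WT (9591 and 2469 counts), and Cox6a1 was 0.28-fold in WT and 0.483-fold in Cripto KO. In complex V the nuclear median over 16 genes was -1.25 in WT and -0.49 in Cripto KO, and the gene with the lowest ratio was Atp5mc1, a gene for the ring subunit that turns against mt-Atp6, at 0.196-fold in WT and 0.34-fold in Cripto KO. Here the MT gene was the lower in Cripto KO, since mt-Atp6 was at -0.39 in WT and -0.61 in Cripto KO. In complex I the medians over 35 nuclear genes were -1.07 and -0.23, with Ndufb4 (0.308-fold), Ndufa1 (0.331-fold) and Ndufa10 (0.354-fold) the lowest in WT. In complex III, Uqcr11 was 0.231-fold, Uqcr10 0.305-fold and Uqcrc1 0.369-fold in WT, with a median of -1.05 over 9 genes in WT and -0.39 in Cripto KO. Complex II has no MT gene, and its 4 nuclear genes had medians of -0.80 and -0.36, with Sdhc at 0.421-fold and Sdhb at 0.456-fold in WT.

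The ratio of MT to nuclear CPM within a complex put these values together, without the medians over transcript length taken off. For complex I it was 2.89 in WT serum/LIF, 3.95 in WT F/A, 3.07 in Cripto KO serum/LIF and 2.77 in Cripto KO F/A. For complex III it was 2.33, 3.53, 2.72 and 2.42, and for complex V 0.0877, 0.154, 0.107 and 0.103. WT F/A was thus the highest library for complexes I, III and V, with the other libraries close together. For complex IV the ratio was 9.65, 13.6, 10.9 and 12.9, also highest in WT F/A but high in both F/A libraries. All windows of mt-Atp8, mt-Atp6, mt-Co2 and mt-Co3 had an exact nuclear copy, so the ratios of different complexes are not a like measure. What part the copies had in them was not tested.

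**Figure D5:**
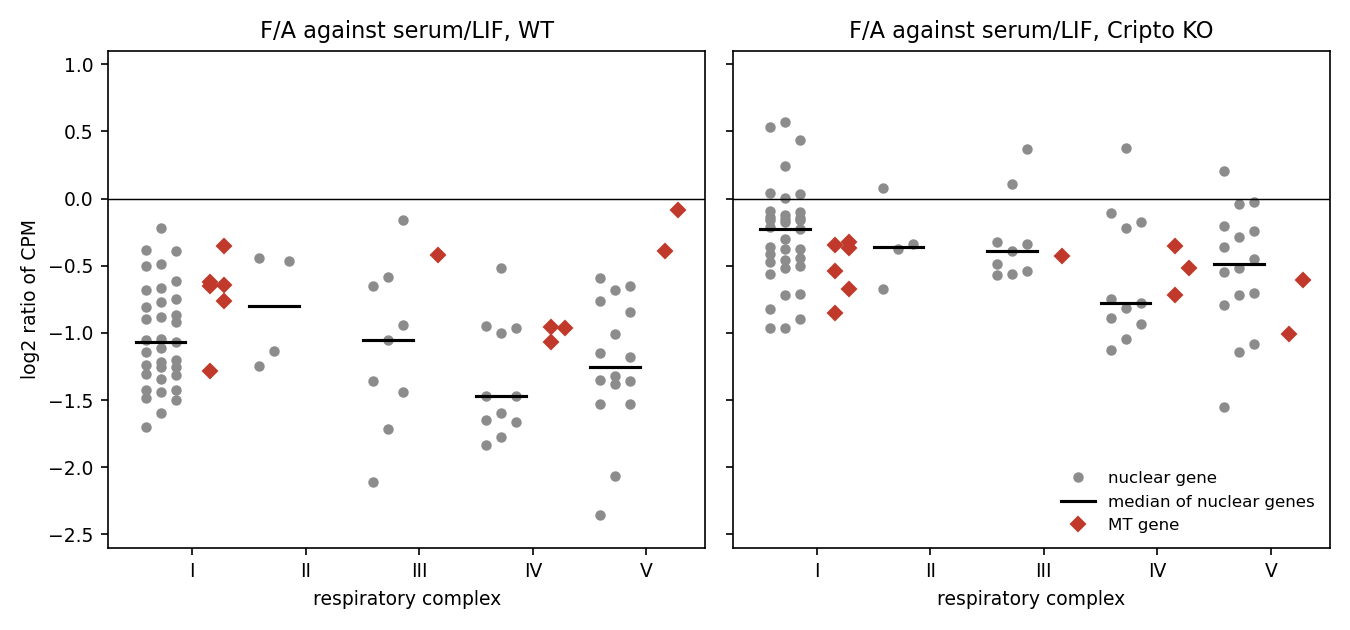
Each point is the log2 ratio of CPM of 1 gene in F/A against serum/LIF, for nuclear subunits (grey, with a line at their median) and MT genes (red diamonds) of each respiratory complex, in WT on the left and Cripto KO on the right. No medians over transcript length are taken off here. In WT the nuclear medians of complexes I, III, IV and V run from -1.05 to -1.47. Each lies below the MT genes of its complex other than mt-Nd3 (-1.29). In Cripto KO the nuclear medians of all complexes lie between -0.23 and -0.78.

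Of the genes that make and keep mitochondrial RNA more were lower than higher in F/A. Of 8 genes of mitochondrial transcription, 6 were lower in WT F/A and 7 in Cripto KO F/A, beside 50.9% and 51.2% of all genes. Polrmt, the mitochondrial RNA polymerase, had 63.8, 20.7, 61.2 and 25.5 CPM and was 0.324-fold (0.285 to 0.368) in WT and 0.417-fold (0.357 to 0.486) in Cripto KO. Tfb1m, the methyltransferase of mt-Rnr1, was 0.351-fold and 0.378-fold. Mterf3, a repressor of mitochondrial transcription, was 2.94-fold and 2.44-fold higher. Tfam, which packages mitochondrial DNA and starts its transcription, had 60.5, 91.5, 118 and 113 CPM, so that WT serum/LIF was the low library. Its ratio was 1.51-fold (1.40 to 1.64) in the WT transition, 0.957-fold (0.883 to 1.04) in that of Cripto KO, and 1.96-fold (1.81 to 2.11) in Cripto KO against WT in serum/LIF.

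None of the 13 genes of mitochondrial DNA maintenance passed a fold of 2 in any comparison, beside 22.3% of all genes higher and 20.1% lower in the WT transition, 20.5% and 19.1% in that of Cripto KO, 3.7% and 7.72% between genotypes in F/A, and 2.12% and 3.52% in serum/LIF. Polg, the polymerase of mitochondrial DNA, had 126, 160, 125 and 174 CPM and was 1.27-fold (1.20 to 1.35) in WT and 1.39-fold (1.30 to 1.49) in Cripto KO. Mitochondrial DNA itself was not measured.

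Of 23 genes of RNA processing and stability, 18 were lower in WT F/A and 19 in Cripto KO F/A, beside 50.9% and 51.2% of all genes, with medians of -0.43 and -0.34. At least 2-fold lower were 4 and 3 of them, beside 20.1% and 19.1% of all genes. Elac2, the enzyme that cuts the 3′ ends of tRNAs out of the precursors, was 0.397-fold in WT and 0.487-fold in Cripto KO. Grsf1, an RNA-binding protein of the granules where precursors are processed, was 2.11-fold and 2.44-fold higher. Fastkd1 was 0.344-fold and 0.393-fold, Rexo2, which degrades short RNA fragments, was 0.441-fold in WT, and Ptcd3, a protein of the small mitochondrial ribosomal subunit, was 0.478-fold in Cripto KO. Lrpprc, which stabilizes the mRNAs of MT and keeps their tails, had 226, 159, 222 and 118 CPM, 0.703-fold (0.668 to 0.74) in WT and 0.531-fold (0.494 to 0.571) in Cripto KO. Cripto KO F/A was its lowest library.

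Of 12 translation factors, 10 were lower in F/A in each genotype, beside 50.9% and 51.2% of all genes. At least 2-fold lower in WT were 3 of 12, a share near the 20.1% of all genes, and in Cripto KO 0 of 12, beside 19.1%. The 3 were Mtfmt, which formylates the initiator tRNA, at 0.394-fold, and the elongation factors Tufm and Tsfm at 0.462-fold and 0.478-fold, and whether they differed from their ratios in Cripto KO was not tested. Among 9 coactivators and regulators tested, 5 were lower in each genotype, a share near that of all genes. Nrip1, a corepressor of nuclear receptors, was 5.43-fold and 5.23-fold higher, and Sirt3, a mitochondrial deacetylase, 0.311-fold and 0.358-fold. Ppargc1b, a coactivator of mitochondrial genes, had 5.89, 7.22, 5.90 and 7.24 CPM, with intervals that include 1 in every comparison, and Ppargc1a had 1 count in WT F/A and 0 elsewhere. Between genotypes within F/A or within serum/LIF, no gene tested from these lists of transcription, maintenance, RNA processing, translation and regulation passed a fold of 2, beside 3.7% of all genes higher and 7.72% lower in F/A and 2.12% and 3.52% in serum/LIF. Among all genes with a mean of at least 1000 counts these shares were 0.577% and 1.38% in F/A and 0.301% and 0.176% in serum/LIF.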

How the data were processed

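RNA of 4 cultures was sequenced as paired-end libraries on a HiSeq 2500. The authors aligned reads to mm9 (NCBIM37) with TopHat2 2.0.13, guided by the Ensembl 67 annotation, assigned them to genes by HTSeq 0.6.1p1 (intersection-nonempty) and deposited raw counts. A second table deposited by the authors holds a normalized signal, quantile-scaled values of the 15462 genes above their filter of 1 CPM. In that mode a read that crosses 2 neighbouring genes goes to neither unless all its annotated bases share 1 of them, and reads with several places are not counted by default. The strand option is not given in the sources used here, so overlapping genes on opposite strands cannot be told apart.

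Raw counts were scaled by library totals, since quantile normalization sets the most abundant genes by rank. Totals of 15230856 to 17315442 counts leave wide intervals for mt-Atp8 and the tRNAs and narrow ones for the other mRNAs. Genes were named by the Ensembl 65 annotation of the same build, which matched 98.9% of identifiers. A gene was called past a fold of 2. With 1 library per group there was no test, and the probability used by the study was not computed. Intervals are Clopper-Pearson (ratios), Wilson (shares), Poisson (levels) and normal (differences of log2 changes), at 95%. The limit of detection was 3 counts, or 6 counts in Cripto KO F/A. Nuclear copies were found with blastn 2.17.0 (word size 28, e-value 1e-05) as exact matches of 100 bases. The medians over transcript length used the 100 nearest nuclear genes with a mean of at least 200 counts, nuclear subunits of the respiratory chain among them.

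The members and lists were chosen with earlier results of these data known. Of 146 list genes 143 were found. Named were all MT mRNAs and rRNAs, tRNAs with at least 20 counts, Tfam, Polrmt, Polg, Lrpprc and Ppargc1b, and per list and comparison up to 3 genes in each direction past a fold of 2 with at least 200 counts, by size. Ppargc1a was named after its values were seen. Alternatives were 4 other scalings (TMM of edgeR 4.0.16 and size factors of DESeq2 1.42.0 in R 4.3.3 among them), transcript length, folds of 1.5 and 3, 1 added to every CPM and other filters. The sum over genes without exact nuclear copies and transcript length for single genes were added after seeing the data. Scripts ran in Python 3.11.15 with numpy 2.4.6, pandas 2.3.3, scipy 1.17.1 and matplotlib 3.10.9, and calls, intervals and medians were tested on simulated data.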

Additional observations from a re-analysis of the deposited data

Results flagged for a closer look

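Of 14 mRNAs and rRNAs with at least 20 counts, several had ratios of opposite direction in groups that can be compared, with both counting intervals clear of 1. The differences were not tested, since each condition is 1 library. mt-Rnr2 was above WT serum/LIF in WT F/A but below its own serum/LIF library in Cripto KO F/A, and the difference of the log2 changes, Cripto KO minus WT, was -0.94. It was also above WT in serum/LIF and below WT in F/A, which is the same difference of -0.94, as was mt-Rnr1, with a difference of -1.07, and mt-Atp6, with -0.22. In the other direction, lower than WT in serum/LIF and higher in F/A, were mt-Co1 (0.61), mt-Nd6 (0.44), mt-Co2 (0.43), mt-Nd3 (0.43), mt-Co3 (0.35) and mt-Nd1 (0.30). With medians over transcript length taken off, mt-Nd3 and mt-Nd6 were no longer higher in F/A, at -0.14 and -0.06.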

How the results depend on the processing

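No paired analysis was possible because each condition has 1 library and the labels give no replicate numbers. Counting intervals of the summed mRNAs are so narrow that small shifts leave them, and the spread between cultures is unknown. On the log2 scale, in the order WT transition, Cripto KO transition, Cripto KO against WT in F/A and in serum/LIF, the summed mRNAs were at -0.80, -0.47, 0.24 and -0.10 as reported, and at -0.42, -0.32, 0.057 and -0.045 with the authors' quantile-normalized values, -0.79, -0.44, 0.27 and -0.081 with TMM, and -0.70, -0.48, 0.12 and -0.080 with medians over transcript length taken off. With size factors of DESeq2 the last 3 were -0.46, 0.26 and -0.078, and with totals without MT genes the transitions were -0.82 and -0.48. Summed over the 4 genes without an exact nuclear copy, the values were -0.47, -0.39, -0.0083 and -0.088. The direction of the sum in F/A thus turned. The difference of the transitions, 0.33 as reported, was 0.10 with quantile values, 0.35 with TMM and 0.22 by length. Over the genes without an exact copy that difference was 0.080. The summed rRNAs moved outside their interval only with quantile values in the WT transition, to -0.24 from -0.16. Among mRNAs at least 2-fold lower, WT F/A had 2 as reported, 1 with quantile values, 1 by length, 8 at a fold of 1.5 and 0 at a fold of 3. Cripto KO F/A had 1 as reported, 0 with quantile values, TMM, size factors, length, a fold of 3 or 1 added to every CPM, and 5 at a fold of 1.5. Cripto KO against WT in F/A had 0 as reported, 1 by length and 1 at a fold of 1.5. Of single genes, the comparison of genotypes changed sign for mt-Cytb in both cultures with TMM and size factors, for mt-Nd2 in F/A and mt-Nd4 in serum/LIF with quantile values, and by length, added for single genes after seeing the data, for mt-Nd2 (-0.26), mt-Nd3 (-0.14) and mt-Nd6 (-0.06) in F/A. By length, mt-Atp8 also changed sign in the WT transition, to 0.46. The cause was not tested. Shares of all genes past a fold of 2 depend on the filter. At a mean of at least 1000 counts they were 11.995% lower in the WT transition, 12.8% higher and 11.1% lower in that of Cripto KO, 0.577% higher and 1.38% lower between genotypes in F/A, and 0.301% higher and 0.176% lower in serum/LIF. Without a filter, 29.3% were lower in the Cripto KO transition, 7.11% higher and 20.5% lower between genotypes in F/A, and 9.66% higher and 12.7% lower in serum/LIF.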
